A study of Mus musculus with 5 samples.

Results

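RXRα binding near 9 adhesion and cytoskeleton scaffold genes was described in alveolar macrophages (AMs), which live in the airspace of the lung and clear surfactant and particles. The genes were Itgal, Itgb2, Vcl, Actn1, Iqgap1, Lima1, Bcar1, Nedd9 and Krt79, out of 21911 protein-coding genes in the annotation. They were selected with the RXRα peaks of these libraries already known, so their peak numbers and peak strengths are given as a description, with no test. A peak belonged to a gene when the transcription start site (TSS) nearest to its midpoint, among all protein-coding genes, was a TSS of that gene. By this rule the 9 genes took 32 of the 4751 WT A peaks and 69 of the 9766 WT G peaks. They took 1 of the 83 KO A peaks and 2 of the 208 KO G peaks.

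Integrins are paired surface receptors that attach cells to matrix or to other cells, and they connect inside the cell to actin filaments through large scaffold and adaptor proteins. Itgb2 encodes the beta2 chain shared by the leukocyte integrins, and Itgal encodes one of its alpha partners. RXRα is a nuclear receptor that binds DNA mostly as a heterodimer with other nuclear receptors.

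AMs came from bronchoalveolar lavage and were sorted by flow cytometry. WT A and WT G were CD11cCre- Rxrabfl/fl mice, and KO A and KO G were CD11cCre+ Rxrabfl/fl mice, so floxed Rxra and Rxrb were shared by all 4 libraries and only the KO mice carried Cre under Cd11c control, a promoter active in AMs and also in dendritic cells. By the methods, the mice were C57BL/6J and 9-wk-old. The assay was HT-ChIPmentation, in which the sequencing library is made by Tn5 on the immunoprecipitated chromatin. An input sample of the WT genotype served as the control for peak calling. The lists hold positions and strengths of DNA fragments and no RNA, so neither the cell type nor the deletion was checked by expression. The labels do not say how many animals entered a library, and the spread between the 2 libraries of a genotype may be technical.

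The libraries differed in depth and in the strength needed for a call. Depth relative to the input, derived from the peak values, was 1.13 for WT A but 0.237 for WT G, with 0.648 for KO A and 0.849 for KO G. The weakest peak at the genome-wide background rested on 10 fragments in WT A but on 5 in WT G, and on 10 (KO A) and 8 (KO G) in the others. WT G thus listed the most peaks from the fewest fragments, and both KO libraries were deeper than WT G. The part of depth in the differences between lists was not tested.

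Of the regions called in both WT libraries, the strongest of each gene is printed here, meaning the one with the highest −log10 q in either library. Each window is the summit of the stronger WT peak with 50 bases on each side. Except at Nedd9, the summit of the other WT library lay outside the window, 57 to 208 bp from the printed one. The bases are from mm10, plus strand, 5′ to 3′, and lie outside UTRs. Capitals mark matches to the motifs described with the sequence results further on.
Nedd9, chr13:41467302-41467402: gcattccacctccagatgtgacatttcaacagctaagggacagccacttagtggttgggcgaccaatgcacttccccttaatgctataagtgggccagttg
Iqgap1, chr7:80782603-80782703: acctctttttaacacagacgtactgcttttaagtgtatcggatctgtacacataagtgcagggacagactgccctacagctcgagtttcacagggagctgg
Lima1, chr15:99835386-99835486: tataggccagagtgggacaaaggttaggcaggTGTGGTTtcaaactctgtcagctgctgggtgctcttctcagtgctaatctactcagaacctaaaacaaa
Krt79, chr15:101936519-101936619: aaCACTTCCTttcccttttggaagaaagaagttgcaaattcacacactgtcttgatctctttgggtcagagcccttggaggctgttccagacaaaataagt
Itgb2, chr10:77531130-77531230: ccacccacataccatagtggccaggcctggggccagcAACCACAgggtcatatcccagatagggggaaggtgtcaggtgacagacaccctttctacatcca
Actn1, chr12:80326233-80326333: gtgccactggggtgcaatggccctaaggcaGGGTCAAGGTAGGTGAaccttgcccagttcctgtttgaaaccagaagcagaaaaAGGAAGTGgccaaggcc

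The first question was how many peaks each gene had in each genotype. Binding was concentrated on 2 of the 9 genes, Iqgap1 and Nedd9, and was nearly absent from the KO lists. Over the 9 genes WT libraries had 50.5 ± 26.2 peaks (SD, n = 2), and KO libraries had 1.5 ± 0.707 (SD, n = 2). The means differed 33.7-fold, beside 49.9-fold for all peaks of the lists. The ratio for the genes ran from 21.3 without WT G to 50.5 without KO G, and was 86.0 with 1 TSS a gene. Between single libraries it ran from 16.0 (WT A over KO G) to 69.0 (WT G over KO A). WT and KO did not overlap, but 2 libraries against 2 cannot reach a two-sided exact permutation p below 0.333, and the members were chosen on peaks, so no test was made.

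**Figure D1:**
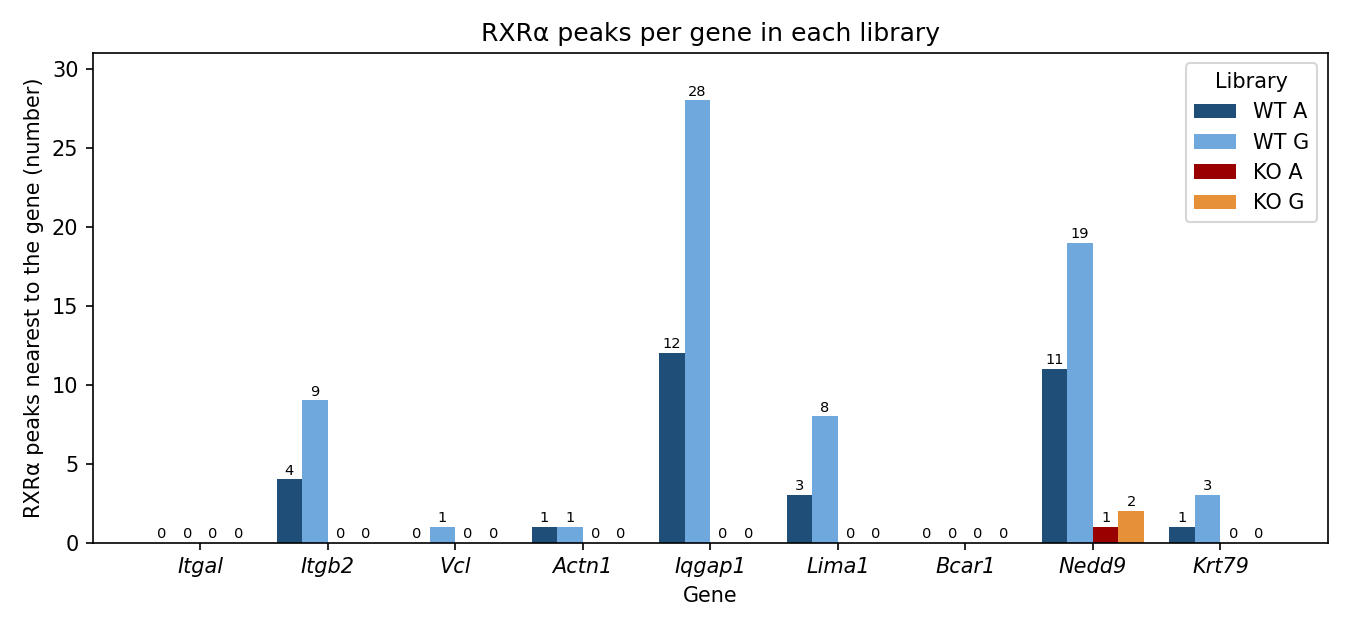
Number of RXRα peaks (vertical axis) nearest to each of the 9 genes (horizontal axis) in WT A, WT G, KO A and KO G. Iqgap1 had 12 and 28 peaks and Nedd9 11 and 19 in the WT libraries, while the only KO peaks were 1 and 2 at Nedd9.

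Iqgap1, a scaffold that binds Cdc42, Rac1 and actin, had 12 peaks in WT A, 28 in WT G and none in either KO library. Nedd9, a Cas-family docking protein of integrin signalling, had 11 and 19 peaks in the WT libraries and 1 and 2 in KO A and KO G. Itgb2 had 4 and 9 WT peaks. Lima1, which bundles actin filaments, had 3 and 8. Krt79, a keratin, had 1 in WT A and 3 in WT G, and Actn1, an actin crosslinker of adhesions and stress fibres, had 1 in each. None of Itgb2, Lima1, Krt79 and Actn1 had a KO peak. Vcl, which couples integrin adhesions to actin, had a single peak, in WT G. Bcar1, the founding Cas docking protein, and Itgal were nearest to no peak of any library.

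Agreement was then compared between the WT libraries. Overlapping WT A and WT G peaks were merged, and 28 merged regions that held a peak of each list were nearest to the 9 genes, of 3423 such regions in all. They belonged to 6 genes, with 10 at Iqgap1, 9 at Nedd9, 4 at Itgb2, 3 at Lima1 and 1 each at Krt79 and Actn1. Of all protein-coding genes, 8.82% had such a region, 10.4% had a WT A peak, 16.6% a WT G peak and 0.936% a KO peak. Since the genes were picked from this readout, nothing is read from their share against that background. All 32 WT A peaks of the genes overlapped a WT G peak, against 83.2% of the whole WT A list. In the other direction 29 of 69 WT G peaks (42.0%, 95% exact binomial interval 30.2 to 54.5) were shared with WT A, where the whole WT G list had 36.1%.

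Iqgap1 and Nedd9 had the most regions of the 9 genes at an overlap of at least 1 bp and with the TSSs of protein-coding genes. With 50% of each peak required to overlap, each had 2, and Itgb2 had 3. With the TSSs of all annotated genes, Iqgap1 had 7, Itgb2 4 and Nedd9 3. Under the first setting and counting the gene itself, 8 genes of the genome had at least as many shared regions as Iqgap1 and 11 had at least as many as Nedd9. The space in which its TSS was the nearest spanned 86.6 kb for Iqgap1 and 230 kb for Nedd9, which gave 11.5 and 3.91 shared regions per 100 kb. Itgb2, with a space of 33.0 kb, had 12.1 per 100 kb, the highest of the 9 genes in this setting, and the whole genome had 0.126. With a −log10 q of at least 5, Itgb2 had 2 regions and Iqgap1 8. With WT G reduced to as many peaks as WT A, they had 2 and 9. Itgb2 did not lead per 100 kb in either case.

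The regions of Iqgap1 were clustered in its second intron. In the longest transcript, of 38 exons, intron 2 is 31.4 kb long, and 7 of the 10 regions lay there within 20.9 kb. The intron held 9 WT A and 17 WT G peaks. The strongest, chr7:80781929-80783849, lay 20.5 kb downstream of the TSS and reached a −log10 q of 18.2 (WT A) and 29.7 (WT G). Its fold enrichment over the input was 11.4 in WT A, from 28 fragments at the summit (95% Poisson interval up to 40.5), and 17.4 in WT G, from 26 fragments (up to 38.1). Another, chr7:80769486-80769950, equalled it in WT A with a −log10 q of 18.2 but reached 9.26 in WT G. One more region lay in intron 4, and the remaining 2 lay upstream of the TSS used, at -27.0 and -28.1 kb. The gene record of Iqgap1 is longer, with 114 kb against 91.8 kb for the transcripts used here. Its 5′ end (80825974) is upstream of that TSS (80803416), so the pair lay closer to the annotated gene than these distances say. That upstream pair had −log10 q values of 12.4 and 12.3 (WT A) and of 17.3 and 11.8 (WT G). No region of Iqgap1 overlapped a KO peak, and the nearest KO peak to its TSS was 3384 kb away in KO A and 433 kb away in KO G.

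Nedd9 carried the strongest region of the group and all of its KO peaks. The gene is 178 kb long, with start sites 128 kb apart, and all 9 regions lay inside it. Intron 1 held 5 of them and intron 3 held 3, within 6.15 kb. The strongest, chr13:41466143-41468871, lay in intron 1 at 19.8 kb from the nearest TSS, with a −log10 q of 19.3 (WT A) and 31.2 (WT G). Its fold enrichment was 11.7 and 17.9, from 29 and 27 fragments. The region nearest to a TSS, at 0.426 kb, counted as the promoter of an annotated transcript and was weak, with a −log10 q of 4.71 and 4.77.

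Both Nedd9 regions with a KO peak were among the strong ones. The region chr13:41330811-41332125, in intron 3, was enriched 10.6-fold and 12.9-fold in WT A and WT G, and 7.12-fold and 8.78-fold in KO A and KO G. Its KO peaks rested on 13 and 16 fragments, with summits 24 and 39 bp from the WT A summit and 257 and 242 bp from the WT G summit. The region chr13:41432819-41433870, in intron 1, was enriched 9.07-fold and 14.2-fold in WT A and WT G, and 5.68-fold in KO G, where 10 fragments supported the peak, and none was called in KO A. The KO G summit there was 12 bp from that of WT A and 183 bp from that of WT G. In both regions every KO fold enrichment was below both WT values. Fold enrichment is not on a common scale across the libraries, so no difference in binding level is read from this order.

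**Figure D2:**
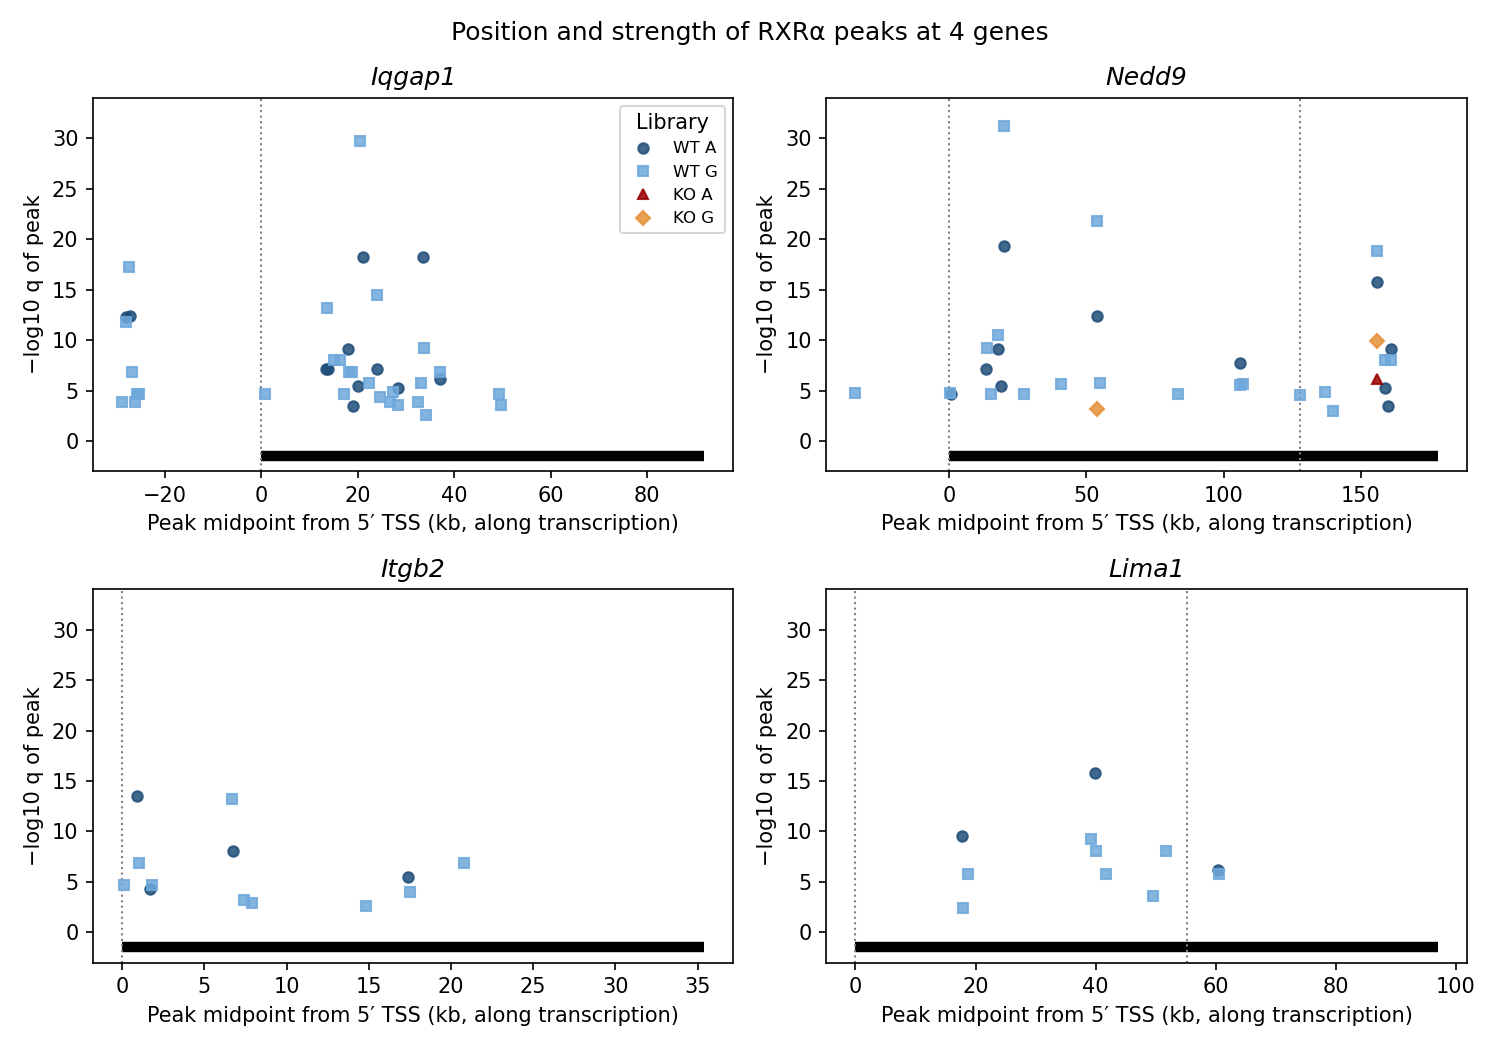
Peak midpoints in kb from the 5′ TSS along the direction of transcription (horizontal axis) against the −log10 q of each peak (vertical axis) at Iqgap1, Nedd9, Itgb2 and Lima1, with the transcribed extent as a black bar and each TSS as a dotted line. The highest points are WT G peaks of Nedd9 (31.2) and Iqgap1 (29.7), inside the genes, and the 3 KO peaks lie within Nedd9.

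Itgb2 regions lay from 1.02 to 17.5 kb downstream of its TSS. Intron 1, of 11.5 kb, held 3 of the 4, at 1.02, 1.76 and 6.70 kb, and intron 5 held the other at 17.5 kb. The first of them, chr10:77531003-77531549, had a −log10 q of 13.5 (WT A) and 6.88 (WT G), and the one at 6.70 kb had 8.06 and 13.2, so the WT libraries ranked the pair in opposite order. A WT G peak 0.0990 kb from the TSS, in the promoter, had no WT A counterpart and a −log10 q of 4.64.

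The 3 Lima1 regions lay in introns 1, 2 and 4 of its longest transcript. The strongest, chr15:99835053-99835875, had a −log10 q of 15.8 (WT A) and 8.04 (WT G). The Krt79 region, chr15:101936246-101936970, lay in intron 2 at 3.72 kb, with 12.4 and 14.5. The Actn1 region, chr12:80326041-80326369, lay at -65.8 kb in intergenic sequence and was the weakest of the strongest regions, with 6.16 and 4.64. It was lost as a shared region under 4 of the alternative settings. Dcaf5, the next protein-coding gene, was 110 kb away.

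The genes without a shared region were looked at by their closest peaks. The Vcl peak of WT G, chr14:20927955-20928313, lay at -1.26 kb with 8 fragments and a −log10 q of 4.64. A further 2 WT G peaks inside Vcl lay at its 3′ end, 103 kb from its TSS, and were nearer to the TSS of Ap3m1. For Itgal the closest WT peaks were 46.5 kb (WT A) and 46.7 kb (WT G) away and were assigned to Zfp768. For Bcar1 they were 77.6 kb away in WT A, nearest to Cfdp1, and 114 kb away in WT G, nearest to Ldhd.

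Of the 28 regions, 23 (82.1%, 95% exact binomial interval 63.1 to 93.9) had their midpoint in an intron, 3 were intergenic, 1 was in a promoter and 1 at a transcription termination site. Among all 3423 regions 50.8% were intronic, 31.5% were intergenic and 10.8% were in promoters. The median distance to the TSS was 19.3 kb, against 15.7 kb for all regions. None of the 8 RefSeq promoter windows (mm10) around starts of 7 of the genes overlapped a peak of any list. These windows did not cover the start of Itgb2 or the 5′ start of Nedd9, near which the promoter peaks described above lay. A further WT G promoter peak, chr13:41359338-41359752, lay at -0.298 kb from the internal TSS of Nedd9, just outside the window there. It had a −log10 q of 4.56 and no WT A counterpart.

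The deposited fold enrichment had medians over the 28 regions of 7.49 (WT A) and 7.74 (WT G). It ranged from 4.89 to 11.7 in WT A and from 4.12 to 17.9 in WT G, and 19 of the 28 were higher in WT G. The medians over all shared regions were 6.72 and 7.60. The genome-wide background was 1.25 fragments in WT A and 0.551 in WT G. Because a constant is added to pileup and background alike, near-equal values do not mean similar plain ratios in these libraries. WT A and WT G summits lay a median of 106 bp apart, against 96.0 bp for all regions. The 40 WT G peaks of the genes with no WT A peak were weaker, with a median of 8 fragments, against 11 for the 29 with one. In 18 of the 28 regions the local input background was within 1% of the genome-wide level in both WT libraries.

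Of the 28 regions, 26 (92.9%, interval 76.5 to 99.1) had no KO peak, against 94.1% of all shared regions. The lowest fold enrichment called at the genome-wide background was 5.60 in KO A and 4.65 in KO G. Among the 26 regions, 20 reached the KO A value in both WT libraries, and 25 reached that of KO G. The exception for KO G was the Lima1 region at 17.9 kb, with 4.12 in WT G. A list holds only called peaks, so signal below its threshold in KO was not measured.

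**Figure D3:**
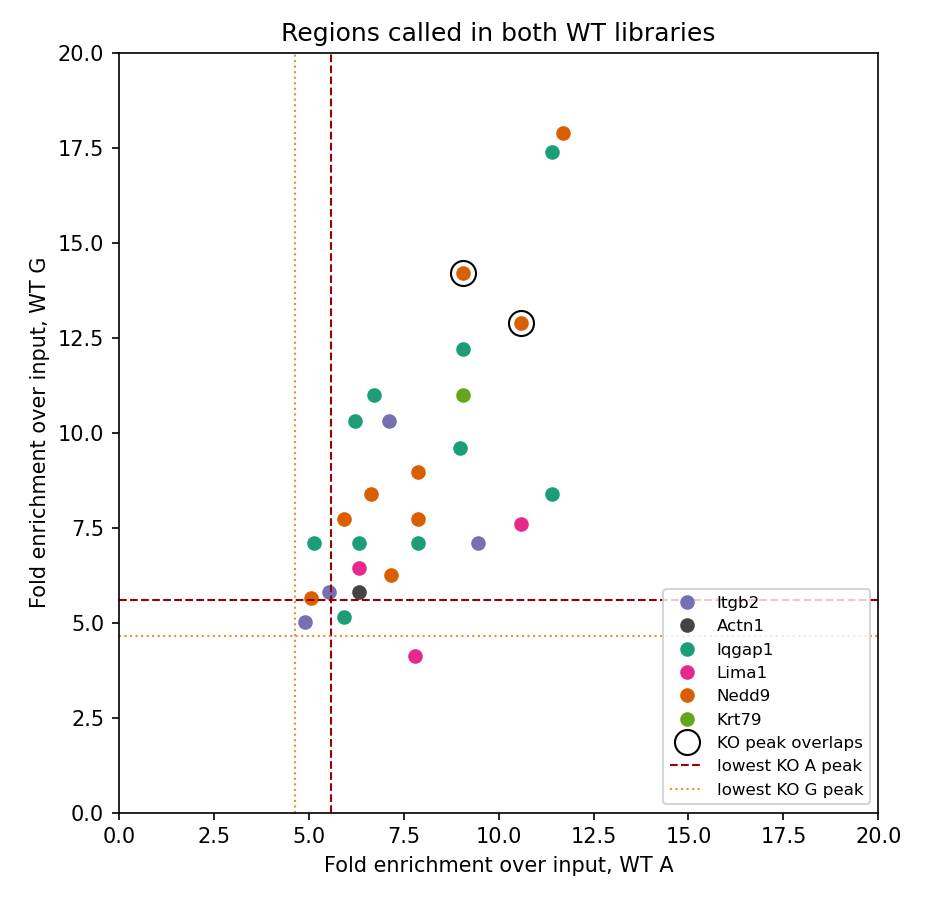
Fold enrichment over the input in WT A (horizontal axis) and WT G (vertical axis) of the 28 regions, coloured by gene, with lines at the lowest fold enrichment of KO A (5.60) and KO G (4.65) peaks at the genome-wide background. The 2 circled regions, both of Nedd9, were the ones with a KO peak. Fold enrichment is not on a common scale across the libraries, so the lines are no exact limits.

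Sequences were scanned on both strands, 50 bp each side of the summit of the stronger WT peak, and overlapping matches were all counted. The direct repeats were 2 copies of AGGTCA separated by 1 base (DR1), 4 bases (DR4) or 5 bases (DR5), with at most 2 mismatches. The others were PU.1 (AGGAAGTG), C/EBP (TTGCNNAA or TTACNNAA), AP-1 (TGAGTCA or TGACTCA) and RUNX (TGTGGTT or TGCGGTT), with none. Of the 28 regions, 9 (32.1%) had any of these, against 39.4% of all shared regions, and 2 (7.14%) had a direct repeat, against 10.1%. The 9 became 14 with 100 bp each side. The 2 became 0 with at most 1 mismatch and 1 at the WT G summit.

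The direct repeats were at Itgb2 and Actn1. The Itgb2 region in intron 5 held a pair of DR1 matches, AGGGCAGGGGTCA and GGGTCACAGGGCA, centred at -26 and 9 bp from the summit, each with 2 mismatches. The Actn1 window printed above held a DR4 match, GGGTCAAGGTAGGTGA, also with 2 mismatches, and a PU.1 match. DR1 matches were in 3.57% of the 28 regions and 6.34% of all regions, and DR4 matches in 3.57% and 1.90%. DR5 matches were in 0 of the 28 and in 2.57% of all. C/EBP matches were in 7.14% of the 28 and 19.4% of all regions, the widest gap of the 7 motifs, at counts of 2 and 664. The shares were 7.14% and 4.62% for PU.1, 7.14% and 5.49% for AP-1, and 10.7% and 6.75% for RUNX. AP-1 matches were at 2 Iqgap1 regions, and a RUNX and a C/EBP match at 1 Nedd9 region. A C/EBP match (TTGCATAA) was at the Itgb2 region at 1.76 kb, and a PU.1 match at Krt79. RUNX matches were in the Itgb2 and Lima1 windows printed above. The strongest windows of Nedd9 and Iqgap1 held none of these letters.

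Other genes of the same machinery were taken from 6 lists of 96 genes, all found in the annotation. Of these, 27 (28.1%) were nearest to a shared region, against 8.82% of all protein-coding genes, with no test made. The lists, like the 9 genes, were chosen with earlier results of these data known, so nothing is read from that difference. A KO peak overlapped a shared region of 5 of the 27, which were Itgax (its only region), Limd1 (its only region), Lpp (2 of 8), Bcar3 (1 of 2) and Lpxn (1 of 2). By region these were 6 of 49 (12.2%, 95% exact binomial interval 4.63 to 24.8), beside 5.87% of all shared regions. Among integrin subunits 3 of 24 had one. Itgax, the CD11c chain and the source of the Cre promoter, had a −log10 q of 8.06 (WT A) and 17.3 (WT G). Itga4, an alpha chain for vascular and matrix ligands, had 6.56 and 7.64, in a single region at -123 kb that is lost with a limit of 100 kb from the TSS.

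Of the integrin activators and focal adhesion adaptors 8 of 25 had a region, led by Lpp, a zyxin-related adaptor, with 22.0 and 28.4, and Evl, which promotes actin filament growth, with 12.4 and 24.8. Of the Cas family partners 5 of 14 did. Bcar3, an adaptor that binds Cas proteins, had 22.9 and 17.6, and Elmo1, which acts in Rac activation, had 13.5 and 21.8. Cass4, a further Cas-family gene, had 2 regions. Thus Nedd9 and Cass4 had shared regions, and Bcar1 had none.

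Of the actin crosslinkers, IQGAPs and their GTPases 7 of 20 had a region. Limd1, a LIM-domain adaptor, had 41.1 and 50.4, and Flna, an actin crosslinker, had 17.0 and 18.8. By fold enrichment Limd1 was below Flna in both libraries, with 8.14 in WT A, and in WT G with 11.6 against 12.9 for Flna. Iqgap2 and Iqgap3 were not among them. Of the keratins 3 of 8 had a region, with Krt19 at 8.06 and 17.3 and Krt78 at 6.16 and 14.5. Among beta2 integrin ligands 1 of 5 did, F11r, a junctional adhesion molecule, with 6.16 and 8.04.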

How the data were processed

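RXRα HT-ChIPmentation was done in AMs of 2 WT and 2 KO libraries, and groups and letters were taken from the sample labels. The tools named in the submitters' processing notes are CASAVA, bcl2fastq, cutadapt, Bowtie2, SAMtools and MACS3, with mm10. Peaks were called by the authors per library against the input, and each library kept its own list. Fold enrichment, as deposited, compares the ChIP pileup with the local input background at the summit. The same constant is added to both before the ratio is taken, so it is lower than the plain ratio. Where the background is low, as in WT G, it is lowered most. The deposited −log10 p and −log10 q belong to the summit, and the deposited score follows the −log10 q.

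Peaks were analysed in Python 3.11.15 with pysam 0.24.0, scipy 1.17.1, matplotlib 3.10.9, pandas 2.3.3 and numpy 2.4.6, against GENCODE M21 (basic set). Peaks shared at least 1 bp. Promoters covered 1 kb before and 100 bp after a TSS, and termination sites from 100 bp upstream to 1 kb downstream. Fragments were derived from the fold enrichment and the −log10 p of the deposited lists, with the pileup of WT A scaled by 0.884. The steps were tested on simulated data. Intervals cover counting error only. Every gene was named, every region in both WT lists and every KO peak was described or counted, and from each list the 2 genes with the highest −log10 q were named, Cass4, Lpxn, Iqgap2 and Iqgap3 being added after their values were seen. Members and lists were chosen with earlier results of these data known. Alternatives covered stricter q values, overlap, the choice of TSS, list length, left-out libraries and motif settings. The input file was not used here.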

Additional observations from a re-analysis of the deposited data

How the results depend on the processing

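Of 59 values under alternatives, 50 stayed within the limits set for them. These were 1.5-fold for a count and the 95% binomial interval for a share (76.5 to 99.1 for no KO peak, also wide). For the ratio of 33.7 the limit was the SD of the 4 WT to KO pairings (22.3, a wide limit). Not all of the 50 were free to move. The ratio does not use overlap, so requiring 50% of each peak to overlap left it at 33.7. With 50% of each peak required to overlap, the shared regions of the genes numbered 8 in place of 28 (Iqgap1 2 in place of 10, Nedd9 2 in place of 9, Itgb2 3 in place of 4), 100% of them had no KO peak, and 16 of the listed machinery genes had a region in place of 27. With the TSSs of all annotated genes, 17 regions were nearest to the genes, 7 of them to Iqgap1, 4 to Itgb2 and 3 to Nedd9. The 6 genes with a region fell to 4 under the 50% overlap, where Actn1 and Krt79 had none, and to 5 under a −log10 q of at least 5, under all annotated TSSs and when WT G was reduced to as many peaks as WT A, where Actn1 had none. With 1 TSS a gene WT peaks outnumbered KO peaks by 86.0, because 1 KO peak remained. Leaving out a library gave a ratio from 21.3 (without WT G) to 50.5 (without KO G) and a share with no KO peak from 92.9% to 97.1%. Without a WT library the peaks of the other list stand alone, which gave 32 regions without WT G and 69 without WT A, and 6 or 7 genes with a region, while leaving out a KO library kept the 28 regions. With a window of 100 bp each side, 14 regions held a motif. Direct repeats were in 0 regions with at most 1 mismatch and in 1 at the WT G summit. The replicate block, pairing libraries by letter, gave ratios of 32.0 (A), 34.5 (G) and 33.2 (their geometric mean). The labels give no shared litter or day for a letter. No correlation check of the letters was run.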
